A study of Mus musculus with 2 samples.

Results

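Conventional dendritic cells were picked from the white blood cells of B16F10 tumours, a transplantable mouse melanoma, as droplet barcodes that carried transcripts of dendritic cell genes and of MHC class II, and that had no transcript of chosen T cell, B cell and plasmacytoid dendritic cell genes and few of C1q and melanoma genes. The rule found 106 of 18252 barcodes, 58 in library 1 and 48 in library 2. Viable CD45+ cells had been sorted from tumours 2 weeks after injection and read by 3′ single-cell RNA sequencing, with 5 tumours pooled per genotype. One genotype was wild type for Rel (LysM-cre x Rel+/+) and the other had loxP sites in both Rel alleles (LysM-cre x RelloxP/loxP), so both carried LysM-cre, the recombinase driven by the lysozyme promoter of myeloid cells. The product of Rel is c-Rel, one of the subunits of NF-kB, and the gene lies at chr11:23736847-23770970 on the minus strand of mm10. The matrix held both libraries under the numbers 1 and 2, and nothing in the sources used here tied a number to a genotype. No comparison between genotypes was therefore made, and with 1 library per genotype no test was possible.

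Conventional dendritic cells take up antigen, load it on MHC molecules and present it to T cells. Type 1 cells (cDC1) depend on the transcription factors Irf8 and Batf3, carry the chemokine receptor Xcr1 and the dead-cell receptor Clec9a, and are known for cross-presenting tumour antigen to CD8 T cells. Type 2 cells (cDC2) depend on Irf4 and carry lectins such as Cd209a, Clec10a and Mgl2. Dendritic cells that have matured turn on Ccr7, the receptor that guides them to lymph nodes, together with Fscn1 and Ccl22.

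A UMI is a molecular tag that counts 1 captured transcript. A member had at least 500 UMIs, at most 10% of UMIs from mitochondrial genes, and under 0.4% of UMIs from the melanoma genes Pmel, Mlana, Dct and Tyrp1. It had no UMI of Cd3d, Cd3e, Cd3g, Cd79a, Cd79b or Siglech, at most 1 UMI of C1qa, C1qb and C1qc, and at least 3 UMIs of H2-Aa, H2-Ab1 and H2-Eb1. The deciding criterion was at least 2 UMIs over 6 dendritic genes, namely Flt3, Xcr1, Clec9a, Cd209a, Wdfy4 and Naaa. These values chose the members and are given here only as a description. The UMI, mitochondrial and melanoma filters passed 3270 barcodes in library 1 and 2972 in library 2, of which members made up 1.77% (95% exact binomial interval 1.35 to 2.29) and 1.62% (1.19 to 2.14). Every interval here is at 95% and covers counting error, not differences between mice or tumours.

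Members held 203178 UMIs in library 1 and 137343 in library 2. The median member had 3045 UMIs in library 1 (995 to 24375) and 2235.5 in library 2 (609 to 23894), and the median number of genes was 1240 and 923. Over the whole series library 1 held 7688 barcodes with a median of 1588 UMIs and library 2 held 10564 with a median of 4290. The libraries shared 3609 barcode sequences, but only 1 member of library 1 and 2 of library 2 had a sequence found in the other library. Of these, 1 in library 2 had the same sequence in library 1 with over 10 times its UMIs. The member of library 1 and the other of library 2 were the deepest members of their libraries, which are described below.

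Many members stood just inside the rule. Of the barcodes that met every other criterion, 291 in library 1 and 265 in library 2, exactly 2 dendritic UMIs were carried by 27 and 18, while 45 and 41 had 1 such UMI and were just outside. In library 1 19 members had 3 or 4 dendritic UMIs and 12 had 5 or more, and in library 2 the numbers were 13 and 17. A further 62 and 23 barcodes met the other criteria but had 2 or more C1q UMIs and were left out.

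Naaa and Wdfy4 did most of the choosing. Naaa, a lysosomal acid amidase gene, was found in 47 of the 58 members of library 1 (109 UMIs) and in 37 of the 48 of library 2 (94 UMIs). Wdfy4, needed for cross-presentation by cDC1, was found in 33 (60 UMIs) and 27 (51 UMIs). Xcr1 was found in 11 (26 UMIs) and 16 (29 UMIs), and Clec9a in 10 (11 UMIs) and 15 (17 UMIs). The growth factor receptor gene Flt3 gave 5 UMIs in 5 members of each library, and Cd209a gave 16 UMIs in 9 members and 7 UMIs in 4. The cDC2 lectins Clec10a (8 and 5 UMIs) and Mgl2 (15 and 5 UMIs) were as sparse. Naaa and Wdfy4 alone admitted 33 members of library 1 and 22 of library 2, and Naaa alone admitted 17 and 10.

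Naaa was also present in cells that the rule leaves out as macrophages. In 393 and 497 barcodes with at least 10 C1q UMIs, with median depths of 3822 and 2794 UMIs, Naaa stood at 123 and 78 CPM (UMIs of the gene scaled to the same total in every class), and at 536 and 684 CPM in members, which were chosen on it. Xcr1 stood at 1 and 2 CPM in the same macrophage barcodes, from 2 and 3 UMIs, and at 128 and 211 CPM in members, again through the choice. At least 2 dendritic UMIs were carried by 16.3% and 6.24% of the macrophage barcodes and at least 2 Naaa UMIs by 12.5% and 4.23%. An Xcr1 or Clec9a UMI was found in only 2.29% and 0.402% of them.

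Most members counted as cDC1-leaning, in a split that shares most of its genes with the rule. By the sum of Xcr1, Clec9a, Wdfy4 and Naaa UMIs against the sum of Cd209a, Clec10a and Mgl2 UMIs, 47 of 58 members of library 1 leaned to cDC1 (81.0%, interval 68.6 to 90.1) and 43 of 48 of library 2 (89.6%, 77.3 to 96.5). Another 8 and 3 leaned to cDC2 (13.8% and 6.25%), and 3 and 2 had equal sums. Because 4 of the genes in the rule mark cDC1 and only 1, Cd209a, marks cDC2, this balance is partly set by the rule.

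The label was checked within the members by splitting them into 5 sets, chosen after the values had been seen. Members with an Xcr1 or Clec9a UMI numbered 14 in library 1 and 20 in library 2. Members with Cd209a but neither of those genes numbered 8 and 4. The others, admitted mostly by Naaa and Wdfy4, were split by Lyz2, the lysozyme gene of monocytes and macrophages, into 18 and 16 with at most 2 Lyz2 UMIs and 17 and 7 with 3 or more. A single barcode in each library had over 10000 UMIs and was kept apart.

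Cst3, the cystatin C gene, is highly expressed in dendritic cells and was no part of the rule. It made up 0.0654% to 4.49% of a barcode's UMIs in the 14 Xcr1/Clec9a-positive members of library 1, with a median of 2.01%, and 1.54% to 5.38% in the 20 of library 2, with a median of 2.55%. In the members low in Lyz2 the medians were 1.51% and 1.5%. In those high in Lyz2 they were 0.240% and 0.224%, and in the Cd209a-positive members 0.271% and 0.327%. A Cst3 share of at least 1% was reached by 12 of 14 and 20 of 20 Xcr1/Clec9a-positive members, by 13 of 18 and 13 of 16 low in Lyz2, by 1 of 17 and 0 of 7 high in Lyz2, and by 0 of 8 and 0 of 4 with Cd209a. In library 2 the range of the Xcr1/Clec9a-positive members did not overlap that of the members high in Lyz2, which ended at 0.353%. In library 1 the ranges overlapped.

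**Figure D1:**
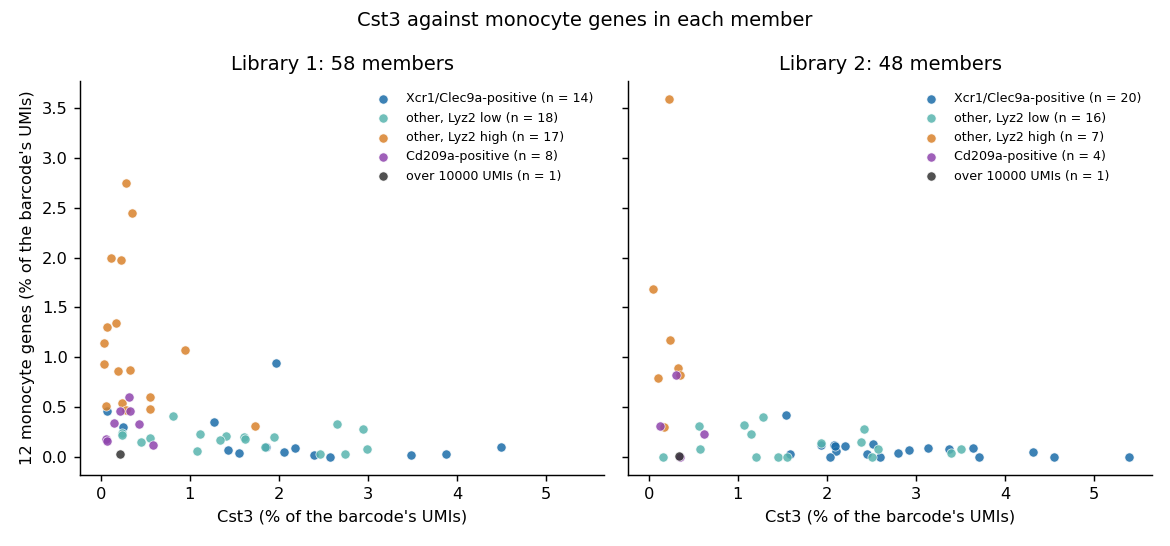
Each point is 1 member, with Cst3 on the x axis and 12 monocyte genes, Lyz2 among them, on the y axis, both as percent of the barcode's UMIs, and the colour gives the set. Xcr1/Clec9a-positive members lie mostly at high Cst3 and low monocyte genes, with medians of 2.01% and 2.55% for Cst3, while members high in Lyz2 lie at low Cst3, with medians of 0.240% and 0.224%.

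Irf8, the transcription factor gene that defines cDC1 and that lies at chr8:120736358-120756694 on the plus strand of mm10, split the members in the same way. Its level over the summed UMIs of the set was 1980 CPM (interval 1630 to 2383) in Xcr1/Clec9a-positive members of library 1 and 1568 (1271 to 1912) in those of library 2. It was 1279 and 1291 CPM in members low in Lyz2. It was 348 (199 to 565) and 292 (79.5 to 747) in members high in Lyz2, where the intervals overlapped those of monocytic barcodes, at 366 (294 to 451) and 161 (91.9 to 261). In Cd209a-positive members Irf8 gave 4 UMIs in library 1 and 0 in library 2. Monocytic barcodes here are those that met every criterion for members except that they had no dendritic UMI and had at least 3 UMIs of Lyz2, Csf1r, Ly6c2 and Ccr2, and they numbered 102 and 70.

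The 24 members high in Lyz2 went against the label. Their dendritic UMIs were nearly all of Naaa, 37 of 43 in library 1 and 19 of 22 in library 2, the rest were of Wdfy4, and none was of Flt3. Lyz2, which chose them, stood at 6636 and 6564 CPM, against 4975 and 4141 in monocytic barcodes. Apoe, a lipid carrier gene of macrophages, stood at 2415 and 1677 CPM, against 18 and 194 in Xcr1/Clec9a-positive members and 2964 and 3256 in monocytic barcodes. The chemokine gene Cxcl2 stood at 5026 and 3355 CPM, against 194 and 0 in Xcr1/Clec9a-positive members and 6003 and 4291 in monocytic barcodes. Over the 9 monocyte genes that chose neither these members nor the monocytic barcodes, the sum was 3350 (2842 to 3923) and 3720 (2770 to 4891) CPM, against 4613 and 3638 in monocytic barcodes and 1025 and 356 in Xcr1/Clec9a-positive members. These members are called here by the gene that set them apart, as high in Lyz2, and not as dendritic cells. Whether these barcodes hold 1 cell or several was not tested.

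The Cd209a-positive members were also low in Cst3, but lower in monocyte genes than monocytic barcodes. Their Cst3 level was 2408 CPM (interval 1787 to 3175) in library 1 and 3370 (1997 to 5326) in library 2, against 2590 and 2181 in monocytic barcodes and 23160 and 28121 in Xcr1/Clec9a-positive members. The calcium-binding protein gene S100a4, listed with cDC2, stood at 2890 and 2621 CPM, against 301 and 48 CPM in Xcr1/Clec9a-positive members, but monocytic barcodes held 1936 and 1769. Irf4, the cDC2 transcription factor gene, gave 1 UMI in all members of each library, and Flt3 gave 1 UMI and 0 in the Cd209a-positive members. Over the 9 monocyte genes given above, the Cd209a-positive members stood at 2119 (1540 to 2845) and 1685 (771 to 3199) CPM. Monocytic barcodes had 4613 and 3638, members high in Lyz2 3350 and 3720, and Xcr1/Clec9a-positive members 1025 and 356. No Lyz2 UMI was found in 6 of 8 and 3 of 4 Cd209a-positive members. At 20764 and 5341 UMIs in all, most other genes were too sparse to compare in them. The cDC2 list as a whole is not reported here for the Cd209a-positive members.

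The 2 barcodes over 10000 UMIs carried melanoma transcripts. They had 24375 UMIs in library 1 and 23894 in library 2, which was 12% and 17.4% of all member UMIs, and 5038 and 5039 genes. Melanoma genes of the filter made up 0.394% and 0.259% of their UMIs, just under the limit in library 1. The melanosome gene Gpnmb gave 73 and 40 UMIs in them, which was 91.2% and 70.2% of all Gpnmb UMIs of members. Ptprc, which encodes the sorted marker CD45, gave 1 and 2 UMIs. They also held 19 and 8 Irf8 UMIs and 2 and 3 UMIs of Xcr1 and Clec9a. The UMI limit was chosen after the values had been seen. Of the calls below that change without these barcodes, some are named and others are only counted by list.

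**Figure D2:**
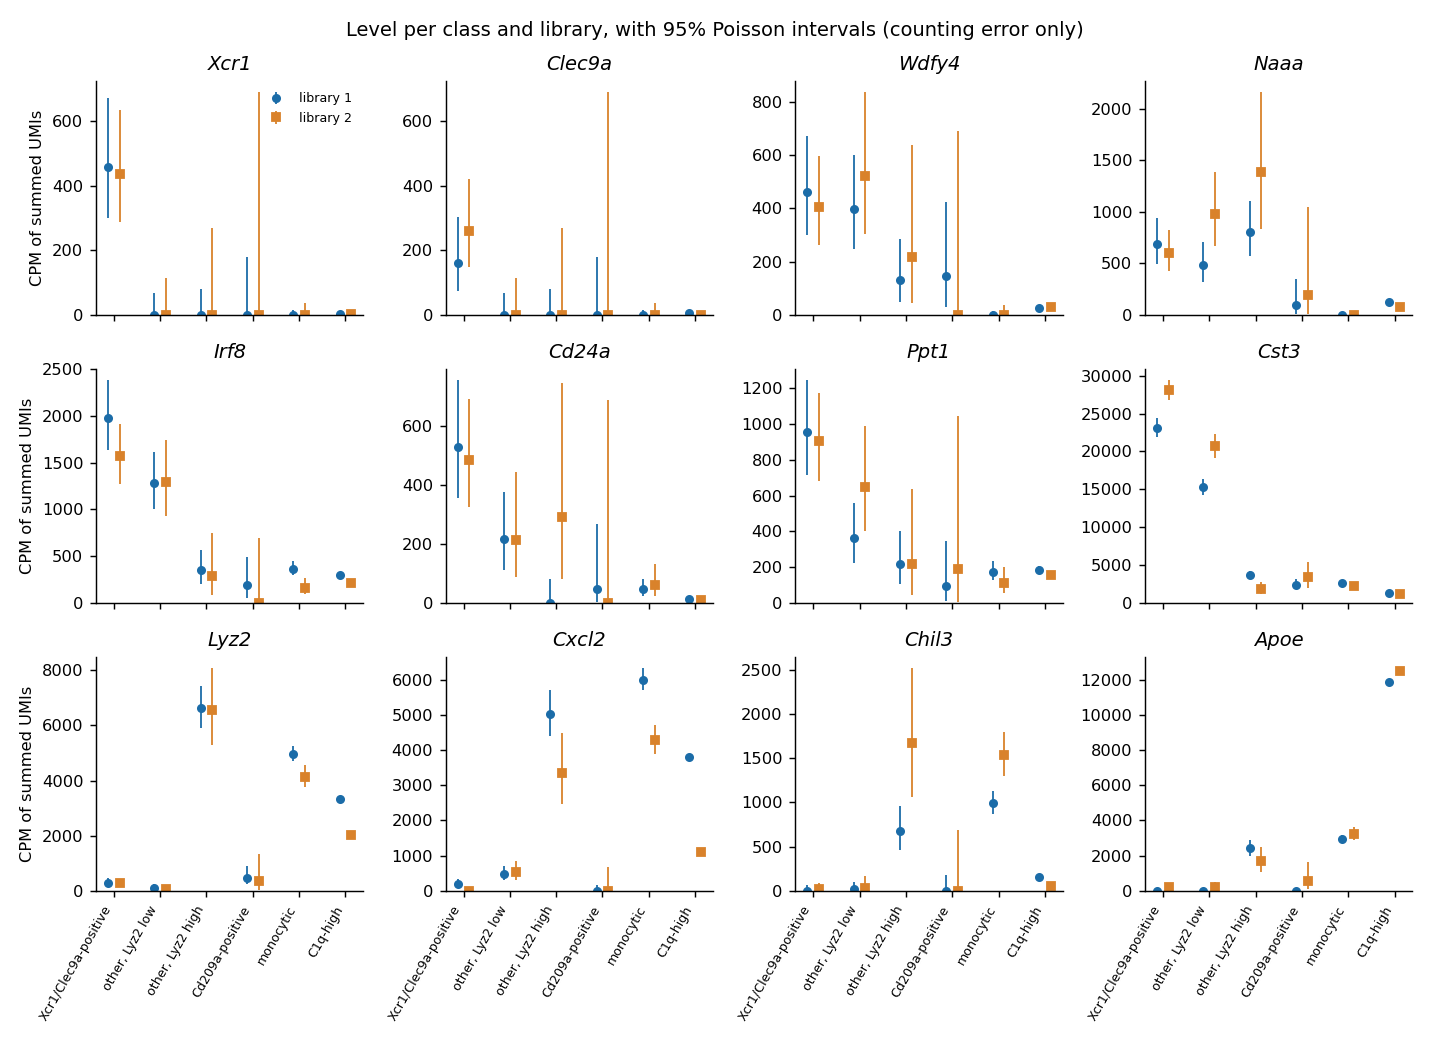
Levels in CPM of summed UMIs (y axis, linear, from 0) of 12 genes in 4 sets of members, in monocytic barcodes and in barcodes with at least 10 C1q UMIs, for library 1 (circles) and library 2 (squares), with 95% Poisson intervals. The genes Xcr1, Clec9a, Wdfy4 and Naaa chose the members and Lyz2 split them, while Irf8 and Cst3 are high in the Xcr1/Clec9a-positive members and in those low in Lyz2, with Cst3 at 23160 and 28121 CPM in the former.

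Against monocytic barcodes, the members as a whole were higher in cDC1 and shared dendritic genes and in cell cycle genes, and lower in chemokine, monocyte and macrophage genes. A gene was compared where the 2 classes together held 20 or more of its UMIs in library 1 and also in library 2, and called where its CPM differed by 2-fold or more the same way in both libraries. Of 1623 genes, 39 were higher in members (2.4%) and 112 were lower (6.9%). Without the 2 deepest barcodes the shares were 2.91% and 6.64% of 1445 genes. Only members were left out in this way, and the deepest monocytic barcode of library 1, with 18845 UMIs, was kept. Monocytic barcodes were chosen on Lyz2, Csf1r, Ly6c2 and Ccr2 and on having no dendritic UMI, and members on at least 2 dendritic UMIs. Higher dendritic genes, those of cDC1 above all, and lower monocyte genes in members are therefore partly a result of that choice. The choosing genes themselves did not enter the comparison.

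Cst3 was the most abundant of the 12 highest genes. Members held 2426 Cst3 UMIs in library 1 and 2538 in library 2, which was 4.61 times the monocytic CPM (interval 4.22 to 5.04) and 8.47 times (7.37 to 9.78). Cd24a, a surface glycoprotein gene of cDC1, was 4.84 times (2.46 to 10.4) and 5.07 times (2.15 to 14.6) higher. Ckb, the brain-type creatine kinase gene, was 5.64 and 4.05 times higher, and Cbfa2t3, a transcriptional co-repressor gene, 3.48 and 4.35 times. Pkib, an inhibitor of protein kinase A, was 4.07 and 10.5 times higher. Septin gene Sept3 was 34.3 and 5.92 times higher, with a wide interval in library 1 because monocytic barcodes held so few of its UMIs.

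Of the 12 highest genes, 5 were cell cycle or replication genes. The DNA clamp-associated factor gene Pclaf was 21.3 and 9.78 times higher in members than in monocytic barcodes, Mcm3, a helicase subunit gene, 11.2 and 9.06 times, and topoisomerase gene Top2a 17.7 and 5.38 times. The proliferation marker Mki67 was 10.0 times (3.58 to 39.0) and 8.69 times (2.75 to 44.1) higher, and 8.06 and 5.85 times without the 2 deepest barcodes. Stmn1, a microtubule regulator gene, was 14.4 and 3.93 times higher. Without the 2 deepest barcodes Mcm3 was no longer among the 12 highest genes. Few barcodes carried these UMIs, since Mki67 or Top2a was found in 14 of 58 and 18 of 48 members. The 3 highest members held 41 of 79 and 49 of 88 of the UMIs. The deepest barcode of each library, which carried melanoma transcripts, alone held 16 and 32 of them. Such a UMI was found in 7 of 14 and 9 of 20 Xcr1/Clec9a-positive members and in 4 of 18 and 6 of 16 low in Lyz2. It was found in only 1 of 17 and 1 of 7 members high in Lyz2, and in 1 of 8 and 1 of 4 with Cd209a. In monocytic barcodes 6 of 102 and 5 of 70 had such a UMI, at median depths of 2062.5 and 1199.5 UMIs. In 246 and 373 macrophage barcodes, with at least 10 C1q UMIs and no dendritic UMI, the share was 30.5% and 31.6%. Their median depths were 3370 and 2624 UMIs. In members the share was 24.1% (13.9 to 37.2) and 37.5% (24 to 52.6), which pools the sets above.

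Ccl17, the gene of a chemokine for Ccr4-bearing T cells, was 3.55 and 10.7 times higher in members, but rested on single barcodes. Of its 27 UMIs in library 1, 20 were in 1 barcode, and of its 89 in library 2, 51 were in 1 barcode.

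The lowest genes were mainly those of monocytes and inflammatory macrophages. The matrix protein gene Thbs1 was 21.5 and 20.1 times lower in members than in monocytic barcodes. The monocyte chemoattractant genes Ccl2 and Ccl7 were 8.69 and 10.6 times and 6.09 and 7.59 times lower, and Ccl3 was 8.04 and 14.5 times lower. The fungal receptor gene Clec4n was 7.19 and 6.70 times lower. Chil3, a chitinase-like gene of monocytes, was 6.10 and 8.12 times lower. Retnla, a secreted resistin-like gene, gave no UMI in members of library 1, where it was at least 11.8-fold lower against a floor of 3 UMIs, and was 21.2 times lower in library 2. Il7r, Vcan, Arg1 and Clec4e were also among the lowest.

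**Figure D3:**
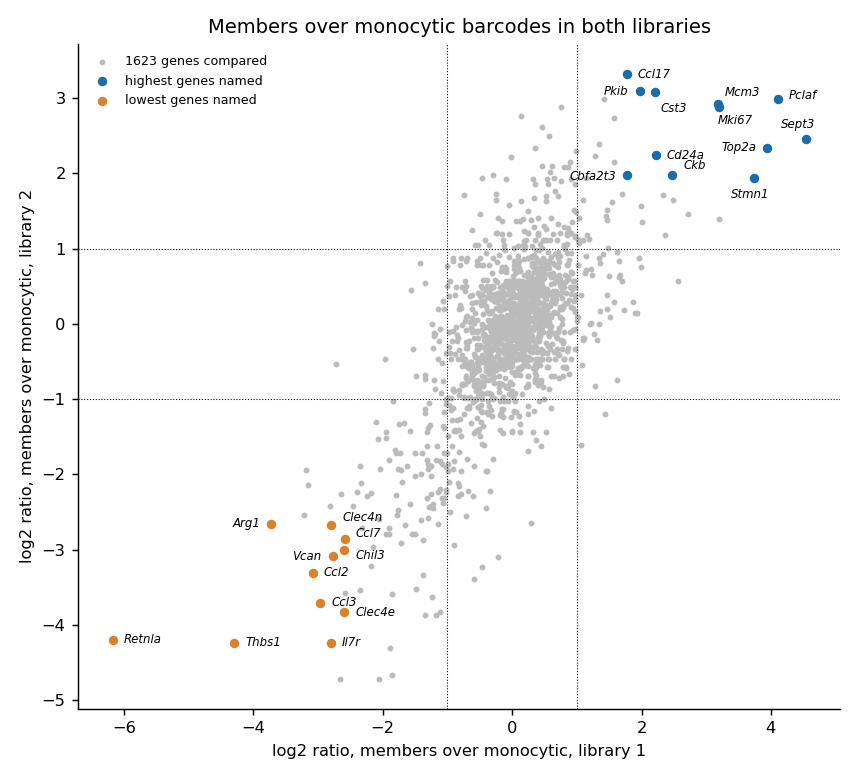
Each point is 1 of 1623 genes, with the log2 ratio of members over monocytic barcodes in library 1 on the x axis and in library 2 on the y axis, using a pseudocount of 0.5 UMI, and dotted lines mark 2-fold. The 12 highest genes (blue) include Cst3, Cd24a and 5 cell cycle or replication genes, and the lowest (orange) include Thbs1, Chil3 and 3 chemokine genes, Ccl2, Ccl3 and Ccl7.

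The list of 17 cDC1 genes outside the rule had 7 genes with enough UMIs, of which 4 were higher in members, Irf8, Cd24a, Ppt1 and Ifi205, and none was lower. Their median log2 ratio was 1.75, against 0.03 over all 1623 genes. Ppt1, a lysosomal thioesterase gene, stood at 448 and 604 CPM in members and 175 and 111 in monocytic barcodes. Batf3, the partner of Irf8 in cDC1 development, gave 21 and 16 UMIs in members, 103 and 116 CPM, against 25 and 60 CPM in monocytic barcodes. Cd207 gave no UMI in members, and Itgae, the integrin gene of cDC1, gave 7 and 16. Without the 2 deepest barcodes Batf3 passed as well, and 5 of 7 cDC1 genes were higher.

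Shared dendritic genes outside the rule, 18 in all, had 4 compared and 3 higher, Cst3, Cbfa2t3 and Ciita, the master regulator gene of MHC class II, with a median of 1.83. Zbtb46, the transcription factor gene held to define conventional dendritic cells, gave only 7 and 3 UMIs in members. Of 10 cDC2 genes compared, Ccl17 was higher and 4 were lower, Sirpa, Itgam, Zeb2 and Clec4a2, with a median of −1.64. Of 13 transcription factor genes compared, Irf8 was higher, 3 were lower, Zeb2 and Cebpb among them, and the median was −0.45.

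Antigen presentation genes were read against 2.4% higher and 6.9% lower over all genes. None of 14 genes of MHC class I and cross-presentation passed 2-fold in both libraries, and their median was −0.06. Of 7 genes of MHC class II and loading outside the rule, Ciita was higher and the proteases Ctss and Lgmn were lower, with a median of 0.42, and without the 2 deepest barcodes Ciita and H2-DMb2 were higher and Lgmn lower. Both classes had been chosen to hold MHC class II transcripts. Cd74, the invariant chain gene, stood at 9740 and 8271 CPM in members and 6016 and 7477 CPM in monocytic barcodes. Of 5 costimulation genes compared, Cd24a was higher and Cd274, which encodes PD-L1, was lower, at 69 and 44 CPM in members and 158 and 141 in monocytic barcodes, a call that was lost without the 2 deepest barcodes. Monocytic barcodes were not filtered on mature dendritic genes and held 16 Ccr7 UMIs in library 1 and 0 in library 2. How far mature cells among them raised Cd274 was not tested.

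Chemokine, cytokine and pattern recognition genes were compared in the same way. Of 11 chemokine genes compared, 7 were lower, Cxcl2, Ccl2, Ccl3, Ccl4, Ccl6, Ccl7 and Ccl9, Ccl17 was higher, and the median was −2.33. Of 3 cytokine genes the interleukin-1 genes Il1b and Il1rn were lower, and of 6 pattern recognition genes Cd14, Clec4n and Clec4e were lower. Of 6 NF-kB family and feedback genes, the inhibitor genes Nfkbia and Nfkbiz were lower, with a median of −0.84. Without the 2 deepest barcodes Il1rn alone of the cytokine genes and Nfkbiz alone of the NF-kB genes passed. For the monocyte list, 7 of 8 genes compared were lower (median −2.33), and for the macrophage list 7 of 7 (median −2.37), against 5 of 8 and 6 of 7 without the 2 deepest barcodes. Of 9 cell cycle genes, 8 were higher (median 2.09), and 6 of 7 without those barcodes. None of 13 genes of hypoxia and glycolysis passed in either direction (median −0.18), while without the 2 deepest barcodes Pfkp was higher and Bnip3 and Slc2a1 were lower (median −0.83).

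Lymphoid, mast cell and granulocyte transcripts were scarce, in part because the rule removed barcodes with Cd3, Cd79 or Siglech UMIs. The 6 basophil and mast cell genes and the 8 B cell genes gave no UMI in members. In library 2 some NK and T cell transcripts were found, at 66 and 80 CPM for the whole lists of 8 and 10 genes, and they were at 10 and 5 CPM in library 1. Plasmacytoid genes stood at 207 and 109 CPM and neutrophil genes at 59 and 124 CPM. The melanoma list stood at 645 and 830 CPM, with most Gpnmb UMIs in the 2 deepest barcodes.

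The 14 and 20 members with Xcr1 or Clec9a were also compared on their own. Against monocytic barcodes 41 of 1068 genes were higher (3.84%) and 148 lower (13.9%). Cst3 was 8.94 times (8.12 to 9.86) and 12.9 times (11.2 to 14.9) higher, and Irf8 5.4 times (4.05 to 7.23) and 9.75 times (5.71 to 17.7). Cd24a was 11.6 and 8.04 times higher, Ppt1 5.46 and 8.19 times, and Ifi205, an interferon-inducible gene of cDC1, 4.25 and 7.40 times. Ckb was 7.81 and 5.01 times higher, and the histone variant gene H2afz 4.09 and 3.70 times. The genes Acadl, of fatty acid oxidation, and Olfm1, an olfactomedin, were 3.96 and 3.57 times and 3.44 and 4.02 times higher.

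Several monocyte genes were not seen at all in the Xcr1/Clec9a-positive members, whose 56562 and 61876 UMIs set the limit. Ccl7 gave no UMI in either library and was at least 20.3-fold and 9.12-fold lower than in monocytic barcodes, against a floor of 3 UMIs per library. Thbs1 was likewise at least 9.97-fold and 21.1-fold lower. Cxcl2 was 30.9 times lower in library 1 and, with no UMI in library 2, at least 88.5-fold lower there. F10, Clec4n, Il1rn, Clec4d, Itgam and Vcan gave no UMI in either library either.

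By list, 5 of 6 cDC1 genes compared were higher in the Xcr1/Clec9a-positive members, the 4 above and Rab7b, with a median log2 ratio of 2.57 against −0.13 over all 1068 genes. All 5 cell cycle genes compared were higher (median 1.96). Few barcodes carried much of this, since the 3 highest of these members held 35 of 43 and 19 of 28 Mki67 and Top2a UMIs. Lower were 8 of 9 chemokine genes (median −4.95), 7 of 7 monocyte genes (median −3.84), 6 of 6 macrophage genes (median −4.39) and 6 of 8 cDC2 genes (median −3.70). Of 11 genes of hypoxia and glycolysis Pfkp was higher and Pkm, Eno1 and Hk2 were lower (median −1.12). None of 12 genes of MHC class I and cross-presentation passed (median −0.18). Of sparse cDC1 genes, Tlr3, the double-stranded RNA receptor gene, stood at 177 and 81 CPM in these members and the adhesion gene Cadm1 at 212 and 81 CPM, from 5 to 12 UMIs each. In members high in Lyz2, which held 45964 and 13711 UMIs in all, Tlr3 gave 0 and 1 UMI and Cadm1 none. In library 2 a single UMI is 72.9 CPM in that set, so the counts there show no contrast with 81 CPM. Batf3 was spread more widely, with 10 of its 21 UMIs in Xcr1/Clec9a-positive members of library 1, 8 of its 16 in those of library 2, and 3 and 2 UMIs in members high in Lyz2. As levels these were 177 and 129 CPM in Xcr1/Clec9a-positive members and 65.3 and 146 CPM in members high in Lyz2.

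**Figure D4:**
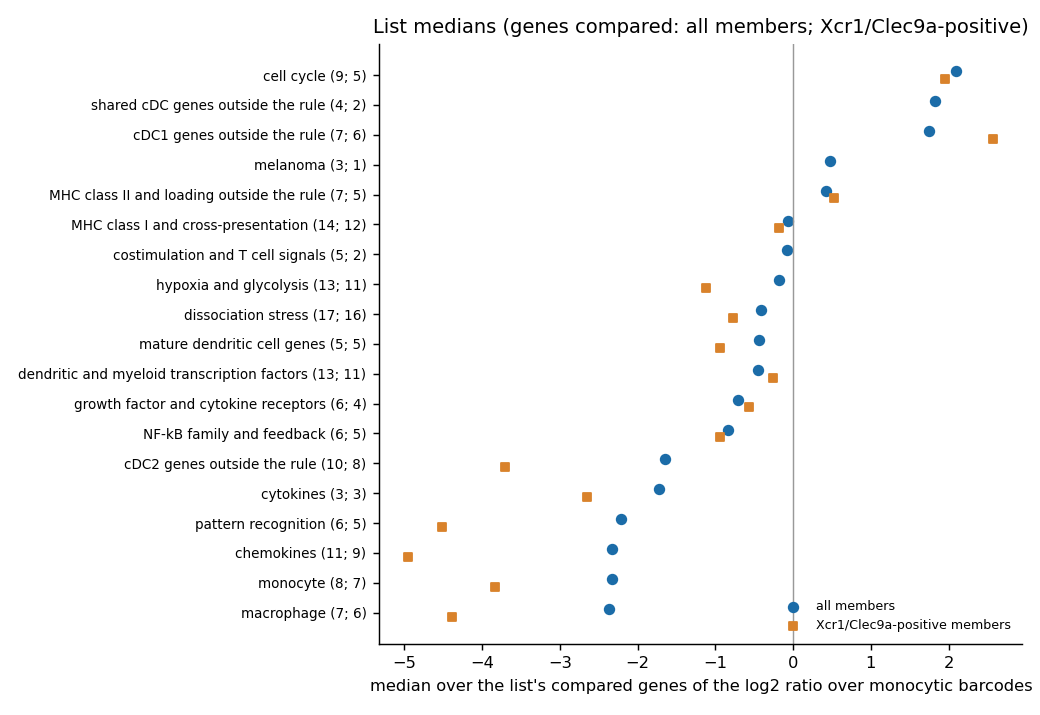
For each gene list (y axis, with the numbers of genes compared in brackets) the median log2 ratio over monocytic barcodes is shown on the x axis for all members (circles) and for Xcr1/Clec9a-positive members (squares, where at least 3 genes were compared). The cDC1, shared dendritic and cell cycle lists lie to the right, at 1.75, 1.83 and 2.09 for all members, and the chemokine, monocyte and macrophage lists lie to the left.

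Members that leaned to cDC1 were higher than those that leaned to cDC2 in Irf8 and Cst3, which the split did not use, and lower in S100a4 and S100a6. The comparison rested on 8 and 3 cDC2-leaning barcodes with 21267 and 4371 UMIs. Of 871 genes compared, 26 were higher in cDC1-leaning members (2.99%) and 30 were lower (3.44%). The 30 became 17 without the 2 deepest barcodes and 7 without the highest 10% of members by UMIs. Irf8 was 4.41 times higher in library 1 (1.99 to 12.1), from 215 against 6 UMIs. In library 2 it gave 151 against 0 UMIs, which was 1.68-fold higher against a floor of 3 UMIs, with an interval that started at 1.35. Cst3 was 2.96 times (2.41 to 3.67) and 5.54 times (3.36 to 9.92) higher, and Psap, the gene of the lysosomal protein prosaposin, 2.79 and 7.54 times. S100a4 was 2.66 times lower in library 1 and 12 times in library 2, S100a6 2.55 and 3.83 times, and Jun, an immediate-early gene, 3.18 and 5.61 times. Among the 12 lowest genes the intervals of Tecr, Sh3bgrl, Atf3, Stk17b, Swi5, Bclaf1, Clk1 and Dennd4a reached past 1 in library 2. On the higher side Stmn1, Cxcl2, Lyz2, Ero1l, Aif1, Romo1, Txn1, Rtraf and Marcks had no UMI in the cDC2-leaning members of library 2 and intervals that reached under 1 there. Lyz2, 3.92 times higher in cDC1-leaning members of library 1, and Cxcl2, 8.18 times, were on the same side as Irf8, and all but 1 of the 24 members high in Lyz2 were among the cDC1-leaning ones.

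Few members carried 3 or more UMIs of the mature genes. At least 3 UMIs over Ccr7, Fscn1, Cacnb3, Ccl22, Socs2 and Il4i1 were carried by 0 of 58 members of library 1, which allows a share of up to 6.16% of barcodes with such UMIs, not of mature cells, and by 1 of 48 of library 2 (2.08%, 0.0527 to 11.1). That barcode had 4484 UMIs, with 51 of Ccl17, 20 of Il12b, the interleukin-12 subunit gene, 7 of Ccl22, 3 of Ccr7 and 1 of Clec9a. It held all Il12b and Ccr7 UMIs of the members of library 2, and members of library 1 had none of either.

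More barcodes with the mature genes lay outside the rule than inside it. Among barcodes that met every other criterion but had fewer than 2 dendritic UMIs, 18 in library 1 and 7 in library 2 had at least 3 UMIs of the mature genes. Cst3 stood there at 14707 and 15257 CPM, above the monocytic 2590 and 2181 and near the 15240 and 20725 of members low in Lyz2. The T cell attractant gene Ccl5 stood at 6912 and 6581 CPM against 30 and 58 in members, and Cd274 at 852 and 972 CPM against 69 and 44. Il12b gave 25 UMIs and 3 in these barcodes.

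Rel was measured in members of both libraries. No source used here says which stretch of the gene is floxed, so its 3′ counts check no genotype label. Its level was 281 CPM (212 to 363, 57 UMIs) in library 1 and 226 CPM (153 to 320, 31 UMIs) in library 2, a ratio of library 2 over library 1 of 0.805 (0.502 to 1.27) whose interval includes 1. In Xcr1/Clec9a-positive members the levels were 248 (135 to 415) and 388 (249 to 577) CPM, a ratio of 1.57 (0.779 to 3.28). The mature barcode gave 5 of those UMIs in library 2. In members low in Lyz2 they were 468 (306 to 686) and 92.2 (19.0 to 270) CPM, a ratio of 0.197 (0.0382 to 0.643), and in members high in Lyz2 239 CPM and 0 UMIs. The interval of the ratio thus included 1 in Xcr1/Clec9a-positive members and lay under 1 in members low in Lyz2, and the difference between these sets was not tested. In monocytic barcodes Rel stood at 329 and 151 CPM, a ratio of 0.458 (0.245 to 0.803), in macrophage barcodes at 139 and 24.9 CPM, 0.179 (0.114 to 0.272), and in 649 and 368 T cell barcodes at 156 and 144 CPM, 0.925 (0.730 to 1.17). The mature barcodes outside the rule had 1862 and 449 CPM.

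The libraries side by side compare 2 libraries and not the genotypes. In members, with at least 50 UMIs over both libraries, 9 of 920 genes were 2-fold or more higher in library 2 (0.978%) and 57 were lower (6.2%). Without the 2 deepest barcodes 7 (0.9%) and 46 (5.91%) of 778 genes were. Those high in Lyz2 were 29.3% of members in library 1 (18.1 to 42.7) and 14.6% in library 2 (6.07 to 27.8), with intervals that overlapped. Lyz2 and Il1b were among the 57 lower genes. The part of makeup in these and in the other lower genes was not tested. Within the Xcr1/Clec9a-positive members 7 (2.39%) of 293 genes were higher in library 2 and 5 (1.71%) lower. In members low in Lyz2 these were 3 (1.31%) and 9 (3.93%) of 229, and in those high in Lyz2 7 (3.7%) and 10 (5.29%) of 189. Monocytic barcodes had 18 (1.84%) and 47 (4.82%) of 976 genes, and macrophage barcodes 60 (1.28%) and 107 (2.29%) of 4676.

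By list, the cDC1 genes did not pass 2-fold between the libraries, with 0 of 6 compared genes and a median log2 ratio of library 2 over library 1 of 0.12 against −0.06 over all 920 genes. Likewise 0 of 12 genes of MHC class I and cross-presentation and 0 of 6 cell cycle genes passed, with medians of −0.37 and 0.63, beside 0.978% and 6.2% over all genes. Within members low in Lyz2, 2 of 3 cell cycle genes compared were higher in library 2 (median 1.83). Lower in library 2 were 3 of 4 genes of the NF-kB family and feedback, Nfkbia, Nfkbiz and Traf1, an adaptor gene of TNF receptor signalling (median −1.79). Of 8 chemokine genes 4 were lower, Ccl4, Cxcl2, Cxcl9 and Cxcl10, and Ccl17 was higher (median −0.95). Of 16 genes of the dissociation stress list, which tissue digestion is known to induce, 3 were lower, Egr1, Ier2 and Dusp1 (median −0.54), and of 5 monocyte genes 3 were lower, Lyz2, Plac8 and Ms4a6c (median −1.02). In monocytic barcodes 3 of 6 genes of the NF-kB list and 4 of 17 stress genes were lower in library 2, with medians of −1.01 and −0.58.

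Gbp2, the gene of an interferon-inducible GTPase, gave 76 and 7 UMIs, or 374 and 51 CPM, a ratio of 0.136. Nfkbia, which encodes the NF-kB inhibitor IkBa and is itself an NF-kB target, gave 233 and 35 UMIs, or 1147 and 255 CPM, a ratio of 0.222. In the Xcr1/Clec9a-positive members its 35 and 8 UMIs were under the minimum of 50 for a comparison and stood at 619 and 129 CPM, a ratio of 0.209 (0.0837 to 0.458). It was also lower in library 2 in monocytic barcodes, at 2435 and 1276 CPM (0.524), and in macrophage barcodes, at 1609 and 473 CPM (0.294). In T cell barcodes it stood at 496 and 486 CPM (0.980, 0.862 to 1.11). The chemokine genes Cxcl9 and Cxcl10, induced by interferon, had ratios of 0.242 and 0.196, the inflammasome sensor gene Nlrp3 0.142, Nfkbiz 0.188, and the immediate-early gene Egr1 0.189. Cd14 and Tnip3 had ratios of 0.241 and 0.230 in members, but of 1.05 and 1.79 in monocytic barcodes. Cd14 gave 1 UMI and 0 in the Xcr1/Clec9a-positive members, and Tnip3 the same.

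**Figure D5:**
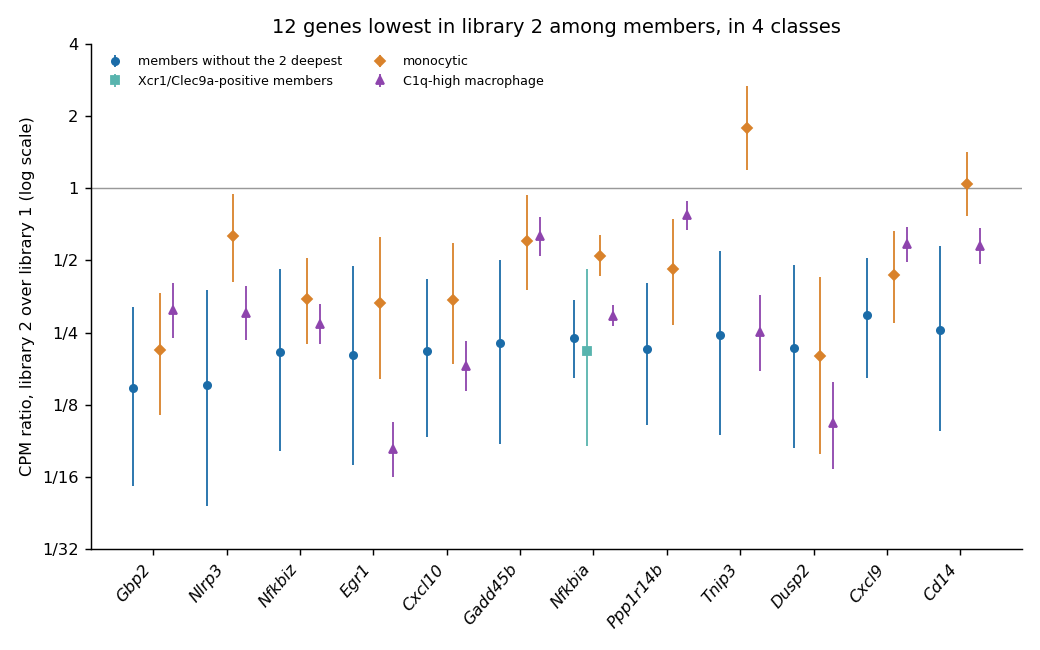
CPM ratio of library 2 over library 1 (y axis, log scale) of the 12 genes lowest in library 2 among members, with 95% intervals, in members without the 2 deepest barcodes, Xcr1/Clec9a-positive members, monocytic and macrophage barcodes; points are shown where both libraries had UMIs and at least 20 in all. All 12 lie under 1 in members, and in monocytic barcodes Tnip3, at 1.79, and Cd14, at 1.05, lie above it.

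Some of the 9 genes higher in library 2 rested on single barcodes. Of the 63 UMIs of Spp1, the osteopontin gene, in library 2 62 were in 1 barcode (ratio 5.82). Of 89 Ccl17 UMIs 51 were in the mature barcode (ratio 4.88, from 133 and 648 CPM). Of 85 UMIs of the calmodulin gene Calm2 23 were in the deepest barcode, and of 49 of the nucleosome-binding protein gene Hmgn1 20, and without the deepest barcodes their ratios went from 2.21 to 1.88 and from 2.01 to 1.58. The transcript AC160336.1 had 20 of its 51 UMIs in the deepest barcode (ratio 10.8), but its ratio was 8.14 without the deepest barcodes, 2.74 in monocytic and 4.32 in T cell barcodes. Sept3 was 2.50 times higher in library 2 and 2.73 times without the deepest barcodes, and Odc1, of polyamine synthesis, 2.02 and 2.03 times. The ribosomal protein gene Rps29 and Rps27l were the others.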

How the data were processed

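The authors deposited raw UMI counts of both libraries in 1 matrix, with 33700981 stored entries over 31053 genes, all whole numbers of at least 1. Cell Ranger and mm10 are named per the submitters' processing notes, and software version 3.0.2 per the file headers. How reads were assigned to genes is not stated in these sources. The labels' protocols give 10000 reads per cell as the aim. No per-sample column was left unused (0).

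Members and gene lists were chosen with earlier results of these data known, as were the comparison classes. Barcodes were not clustered and no doublet caller was run. For each class of barcodes and each library, UMIs of a gene were summed and scaled by the class's total to CPM. Intervals are at 95%, exact Poisson for levels, Clopper-Pearson for shares and conditional binomial for ratios. PCR duplicates were already merged into UMIs, and intervals cover counting error only. To be compared between classes a gene needed 20 UMIs in the 2 classes together, in library 1 and again in library 2, and between libraries 50 UMIs over both and, to be named, 100 CPM in 1 of them. Log2 values use a pseudocount of 0.5 UMI. Rule genes and 35 symbols shared by several genes did not enter ratios. Mitochondrial, ribosomal and receptor variable genes entered counts of calls but were passed over in picking the highest and lowest. Of 407 list genes 403 were matched. Ifi30, Cxcl11, Clec7a and Aldoa were not analysed here, and some genes that the naming rule picked are not reported here. Named genes are the 12 highest and the 12 lowest by the smaller change of both libraries, up to 5 list genes with most UMIs and up to 3 per direction with the largest ratios, the rule genes and 9 fixed genes (Rel, Irf8, Irf4, Batf3, Zbtb46, Ccr7, Cd274, Cxcl9 and Il12b). Apoe, Gpnmb, Ptprc, Ccl5, Tlr3, Cadm1, Itgae, Cd207 and further list genes were named with their values in view. Scripts were tested on simulated data. Gene positions are from GENCODE M21. Python 3.11.15, numpy 2.4.6, scipy 1.17.1, pandas 2.3.3 and matplotlib 3.10.9 were used.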

Additional observations from a re-analysis of the deposited data

How the results depend on the processing

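No named class ratio turned sign where it was scored, but a gene was scored only where it passed the UMI minimum in that setting. Over all settings, 524 scored values of named ratios between classes or libraries stayed within their limits and 66 moved. Thinned to 1000 UMIs, only 5 stayed and 4 moved, and the other named ratios went unchecked there. The order of the libraries did turn, for the share of members with 3 or more and with 5 or more dendritic UMIs, thinned (0.716% and 1.25%) and with melanoma genes under 0.1% (2.05% and 2.14%), and for Rel in Xcr1/Clec9a-positive members and thinned (66.7 and 160.0 CPM). Of the values and counts that answer a comparison, 93 stayed within their limits while 45 moved. With 3 or more dendritic UMIs the share of members was 0.948% and 1.01% and the cDC1-leaning share 93.5% and 96.7%, and 26 genes were lower in library 2. With 5 or more these were 0.367%, 0.572%, 91.7%, 100% and 3, and Rel in library 1 was 199.6 CPM. Mature members of library 2 numbered 0 with 5 or more dendritic UMIs, thinned to 1000 UMIs, with the highest 10% of members left out and with melanoma genes under 0.1%. At 1000 UMIs per barcode members were 2.80% and 2.26%, and at melanoma genes under 0.1% library 2 had 2.14%. Thinned, library 1 had 0.716% and Rel 66.7 CPM, 6 genes were higher and 51 lower than in monocytic barcodes, 2 and 2 in the cDC1 comparison, and 1 and 2 between libraries. Without the highest 10% of members 71 genes were lower than in monocytic barcodes. Genes lower in cDC1-leaning members numbered 7 without the highest 10%, 11 with melanoma genes under 0.1%, 19 as means over barcodes and 17 without barcodes over 10000 UMIs, a limit chosen after seeing the data. Means over barcodes gave 18 genes higher in library 2. A minimum of 50 UMIs gave 8 and 50 genes against monocytic barcodes, 11 and 5 in the cDC1 comparison and, at 100 UMIs, 4 and 22 between libraries. A minimum of 10 UMIs gave 103 and 177, 96 lower, and, at 20 UMIs, 93 and 199. In Xcr1/Clec9a-positive members alone, also added after seeing the data, Rel in library 2 was 388 CPM and 5 genes were lower in library 2. With 3 or more dendritic UMIs no member of library 2 leaned to cDC2, so that comparison gave no value. No paired analysis was possible because each genotype had 1 library, and no replicate could be left out. Depth limits genes below about 20 UMIs per class.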
